A study of Mus musculus with 6 samples.

Results

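The proteasome subunit genes of mouse liver are described here, together with the genes of the proteins that activate, inhibit and assemble the proteasome. Members were all protein-coding genes whose symbol is Psma, Psmb, Psmc, Psmd, Psme, Psmf or Psmg followed by a digit in the GENCODE M21 annotation. This gave 50 of the 35082 genes with transcripts in the files. By the part of the particle that they encode, they are 14 constitutive core genes, 3 immunoproteasome genes, 17 regulatory particle genes, 6 activator or inhibitor genes, 7 assembly chaperone genes, the testis variant Psma8, the thymus variant Psmb11, and Psmc3ip. The last matches the naming rule but encodes a recombination factor of meiosis, not a subunit. Of the 50, 47 passed the filter on low counts, which left 12497 genes in all. The other 3, Psmb11, Psmc3ip and Psme2b, stayed below 1 CPM (counts scaled to a common library size) in all 6 libraries and were not tested.

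The libraries are poly(A) RNA of whole liver from 6 male mice, 3 in each group, given a high-fat diet from 8 weeks of age for 20 weeks. The control group has the genotype G3BP1f/f, with the floxed alleles and no Cre recombinase. The other group carries the same floxed alleles together with Alb-cre, in which the albumin promoter drives Cre in hepatocytes, so that other liver cells keep the gene. No group on another diet and no animal with Alb-cre alone is among the 6 libraries, so the Cre transgene and the loss of G3bp1 cannot be told apart. G3bp1 encodes an RNA-binding protein of stress granules. Its summed transcripts came to 44.1, 34.8 and 40.5 CPM for controls 1 to 3 against 44.0, 30.0 and 31.5 CPM for animals 1 to 3 of the other group, with overlap (log2 difference -0.18 ± 0.22 (SE), adjusted p = 0.909 with edgeR's quasi-likelihood test). Because this gene's total does not separate the groups, the second group is called knockout-labelled throughout. The labels do not say which exons are floxed, and a transcript that lacks them could still be counted.

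The proteasome degrades proteins that carry ubiquitin chains. Its core particle is a barrel of stacked rings, with alpha subunits in the outer rings, which gate the entry, and beta subunits in the inner rings, some of which hold the proteolytic sites. The regulatory particle caps the barrel, binds ubiquitin, removes it, and unfolds the substrate with a ring of ATPases. In interferon-stimulated cells and in leukocytes, inducible catalytic subunits take the place of the constitutive ones. In the liver, the transcription factor NRF1 (Nfe2l1) is known to maintain proteasome gene expression.

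The bases before the RefSeq start of 4 catalytic subunit genes are shown because these genes form the pairs compared below: Psmb5 and Psmb6 are constitutive, and Psmb8 and Psmb9 encode the inducible subunits that replace them. Each line is the 100 bases before the start of the gene in RefSeq on GRCm38.p6, 5′ to 3′ on the strand of the gene. Capitals mark matches to TGACNNNGC (a core of the antioxidant response element) in Psmb5 and Psmb6, to TTCNNNGAA (a STAT site) in Psmb8, and to CCAAT (the NF-Y motif) on the opposite strand in Psmb9. The windows are chr14:54617996-54618095 (minus strand) for Psmb5, chr11:70525257-70525356 (plus strand) for Psmb6, chr17:34198095-34198194 (plus strand) for Psmb8 and chr17:34187331-34187430 (minus strand) for Psmb9. The RefSeq starts differ from the outermost starts in GENCODE M21, and the windows of Psmb8 and Psmb9 lie wholly inside the GENCODE genes.
Psmb5: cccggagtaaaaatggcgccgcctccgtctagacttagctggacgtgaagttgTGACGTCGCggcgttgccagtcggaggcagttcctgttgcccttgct
Psmb6: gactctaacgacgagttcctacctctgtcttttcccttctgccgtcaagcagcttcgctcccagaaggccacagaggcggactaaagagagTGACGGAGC
Psmb8: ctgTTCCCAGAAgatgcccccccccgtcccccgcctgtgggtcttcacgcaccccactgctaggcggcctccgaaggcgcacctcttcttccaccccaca
Psmb9: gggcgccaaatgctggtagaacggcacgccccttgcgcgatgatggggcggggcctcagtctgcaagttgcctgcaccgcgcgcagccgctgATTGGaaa

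Over the longer window of the RefSeq table, from 250 bases before to 50 bases after the start, 42 of the 50 members had an entry. TGACNNNGC was found on either strand in 6 of the 42 (14.3%), against 14.0% of the 27025 genes with an entry. Those 6 were Psmb5, Psmb6, Psmc6, Psmd12, Psmd9 and Psme4. CCAAT was found in 15 of 42 (35.7% against 41.1% of all), and TTCNNNGAA in 3 of 42 (7.14% against 9.55%). The core of an interferon response element (GAAA, any 2 bases, then GAAA again) was found in 5 members (11.9% against 3.99%), namely Psmb3, Psmd4, Psmd9, Psme1 and Psmg4. These are matches of letters only, and none of the libraries measured binding.

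In each library 20851833 to 21702924 estimated counts fell in genes, of which the 50 members took 0.273% to 0.350%. Hepatocyte transcripts were abundant in all 6, with Alb at 42813 to 88282 CPM, and the sum of the 5 hepatocyte markers matched was 82611, 84307 and 112849 CPM in the controls and 101364, 96447 and 55553 CPM in the knockout-labelled libraries. Knockout-labelled replicate 3 had the lowest sum, and without it the core median described below was -0.35 and the beta median -0.46. The summed level of the 11 Kupffer cell and macrophage markers was 259, 381 and 811 CPM in the controls and 368, 259 and 319 CPM in the knockout-labelled libraries, with 11 of 11 estimates below 0 and no marker at 0 in any library. The share of mitochondrially encoded transcripts was 7.40%, 7.64% and 7.22% of counts in the controls against 7.57%, 9.19% and 10.2% in the knockout-labelled group. The part of these differences in the results was not tested, and in bulk tissue fewer cells of a type and less RNA per cell cannot be told apart.

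Levels between genes were compared as TPM, in which transcript counts are scaled to length and to a fixed total per library. In the controls the highest member was Psme1, a subunit of the activator that opens the gate of the core, at 314 ± 66.9 TPM (SD, n = 3). Next came the beta subunits Psmb6 (185 ± 33.8 TPM) and Psmb3 (181 ± 23.3 TPM) and the alpha subunit Psma3 (155 ± 20.85 TPM). Psmb6 and Psmb3 lay within each other's spread. These levels sum all annotated transcripts, coding or not. A 439-base transcript not annotated as coding took 45.2%, 24.8% and 29.0% of Psme1 counts in the controls. For a 562-base one of Psma3 the shares were 43.0%, 0% and 14.6%. The order on coding transcripts alone was not computed. Psma8, the alpha subunit of the testis, was the lowest tested member at 0.486 ± 0.261 TPM.

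Although each core ring holds its alpha or beta subunits in equal number, their transcripts were not at 1 level. The 7 constitutive beta genes spanned 81.0 TPM (Psmb1) to 185 TPM (Psmb6), 2.28-fold, and the 7 alpha genes 29.3 TPM (Psma2) to 155 TPM (Psma3), 5.28-fold. Both spans are over all annotated transcripts, and part of the Psma3 level lay on transcripts not annotated as coding. The 6 ATPase genes ran from 26.1 TPM (Psmc6) to 90.7 TPM (Psmc4), and the 11 non-ATPase genes of the regulatory particle from 16.6 TPM (Psmd11) to 82.3 TPM (Psmd8). The 7 chaperone genes, whose proteins leave the finished particle, were all between 5.20 TPM (Psmd10) and 19.5 TPM (Psmd9). The immunoproteasome genes stood at 13.2 TPM (Psmb9), 22.8 TPM (Psmb8) and 52.5 TPM (Psmb10). With CPM per kilobase in place of TPM, 9 of the 10 highest members were the same, with Psmb1 in place of Psmb2. That measure also sums all annotated transcripts.

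The question asked of these genes was whether their transcripts differed between the knockout-labelled and control livers, with the core and the regulatory particle apart. No single member passed the test. edgeR called 0 of 12497 genes (0%) at an adjusted p under 0.05, and the members' adjusted p-values ran from 0.845 to 0.998. DESeq2 called 11 of the 12484 genes for which it gave an adjusted p (0.0881%), and 0 of these were members. What the members showed was a shared sign: the edgeR log2 difference, knockout-labelled minus control, lay below 0 for 43 of 47 members (91.5%), with a median of -0.28. Over all genes tested, 48.4% lay below 0 and the median was 0.01. When the libraries were scaled by their totals rather than by TMM, 24 of 47 members lay below 0 with a median of -0.020, and over all genes 21.1% lay below 0 with a median of 0.27, so the members' median was lower than that of all genes by a difference of -0.29.

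At an unadjusted p under 0.05, 6 of 47 members were lower in the knockout-labelled libraries, against 1.90% of all genes tested. They were the core genes Psmb2, Psmb3, Psmb4 and Psmb5, the ATPase gene Psmc3 and the activator gene Psme1. In the other direction there were 0 members, against 2.65% of all genes. For 12 of 47 members (25.5%) all 3 knockout-labelled libraries lay below all 3 controls in CPM, against 4.55% of all genes. These were Psma2, Psma4, Psma7, Psmb1, Psmb2, Psmb5, Psmc2, Psmc3, Psmd1, Psmd6, Psmd9 and Psme1. No member had all knockout-labelled libraries above the controls, against 4.79% of all genes, and in either direction the background was 9.34%. The TMM factors behind CPM also did not overlap, at 0.901, 0.842 and 1.00 in the controls against 1.08, 1.07 and 1.14. A larger factor lowers every CPM of its library. These separations hold under TMM scaling and are not given with library totals.

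**Figure D1:**
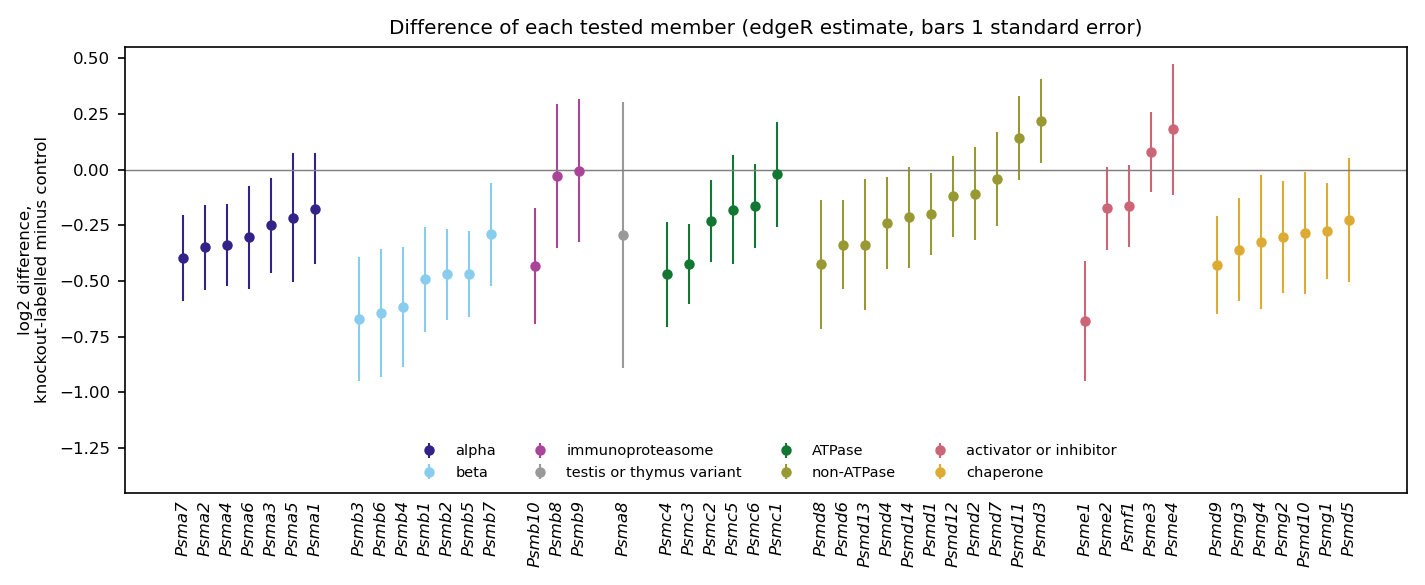
The edgeR log2 difference (knockout-labelled minus control, 3 libraries each) of each of the 47 tested members is plotted on the vertical axis, grouped by role, with bars of 1 standard error. The 7 alpha and 7 beta genes all lie below 0, and 4 genes, Psmd3, Psmd11, Psme3 and Psme4, lie above it.

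All 14 constitutive core genes lay below 0, from -0.67 to -0.17, with a median of -0.37. The median was -0.30 for the 7 alpha genes and -0.49 for the 7 beta genes. With library totals 11 of 14 core genes lay below 0, of which 4 of 7 were alpha genes (median -0.042) and 7 of 7 beta genes (median -0.24). Among the regulatory particle genes 15 of 17 lay below 0, from -0.47 to 0.22, and the median was -0.20, but with library totals it was 0.064, with 5 of 17 below 0. Relative to the median of all genes under that scaling, the core median was -0.38 and the regulatory median -0.21.

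The libraries within a group did not stand together. As the deviation of log2 CPM from the mean of the 6 libraries, the beta genes had medians of 0.18, 0.31 and 0.29 in control replicates 1 to 3 and of 0.14, -0.45 and -0.54 in knockout-labelled replicates 1 to 3. Knockout-labelled replicate 1 was thus near the controls, and replicates 2 and 3 were far below them. For the alpha genes the medians were -0.03, 0.33 and 0.18 in the controls against -0.08, -0.25 and -0.16 in the knockout-labelled group. Here control replicate 1 lay close to the knockout-labelled libraries.

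The regulatory particle genes spread less. Their median deviations were 0.04, 0.22 and 0.04 in the controls against -0.04, -0.19 and -0.03 in the knockout-labelled group, so each knockout-labelled median lay below each control median. Of the 47 members, 18, 8 and 8 were below their own mean in control replicates 1 to 3, against 22, 41 and 34 in the knockout-labelled libraries. Subtracting the regulatory from the core median in each library gave 0.03, 0.10 and 0.16 in the controls against 0.03, -0.17 and -0.24 in the knockout-labelled group. The group means were 0.096 ± 0.062 and -0.125 ± 0.136 (SD, n = 3 each), and control replicate 1 and knockout-labelled replicate 1 were alike.

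The difference between the core and regulatory medians of the edgeR estimates was -0.17, and without knockout-labelled replicate 1 it was -0.29. No test was made of it, since it is a score over chosen genes.

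**Figure D2:**
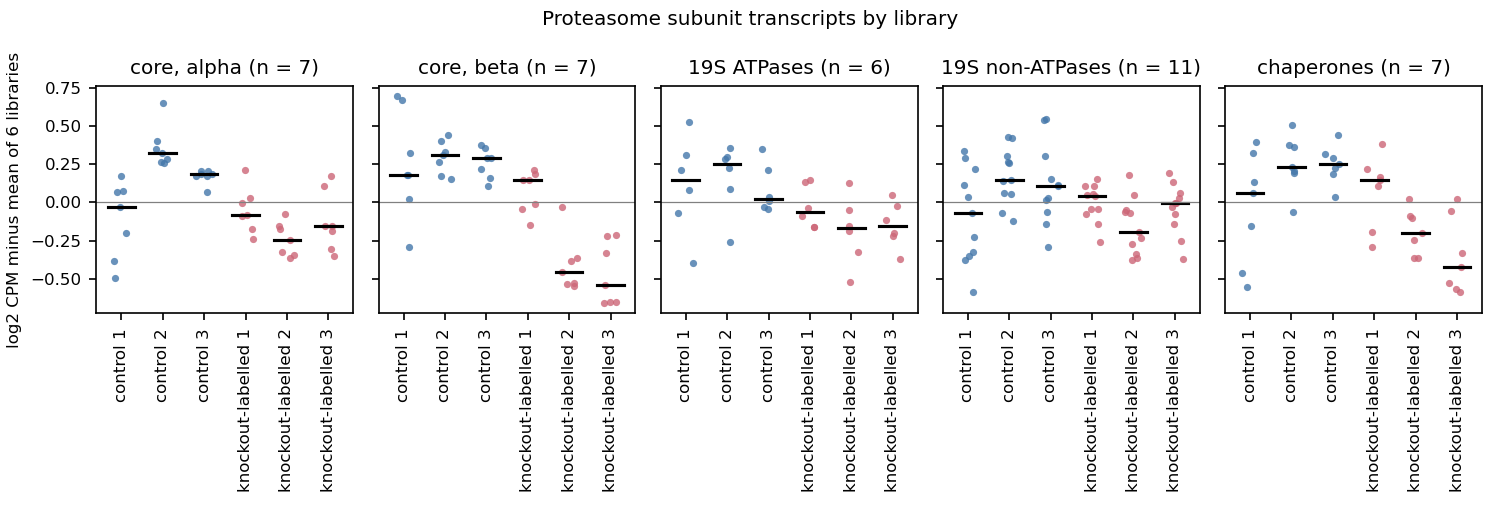
Each point is the deviation of log2 CPM of 1 gene from its mean over the 6 libraries, in 1 library, for the alpha and beta genes of the core, the ATPases and non-ATPases of the regulatory particle (19S in the panel titles) and the chaperones, with black bars at the median. The beta genes of knockout-labelled replicates 2 and 3 sit at medians of -0.45 and -0.54, whereas those of knockout-labelled replicate 1 sit at 0.14, near the controls.

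Transcript length moved with these differences. In these libraries short transcripts in general had lower estimates in the knockout-labelled group, and most proteasome genes have short transcripts. The lower level of short genes was in knockout-labelled replicates 2 and 3. Other genes in the beta genes' length range had median deviations of 0.06, 0.11 and 0.13 in the controls against 0.09, -0.12 and -0.19. The split of knockout-labelled replicate 1 from replicates 2 and 3 was thus not particular to the beta genes. Among the 1174 tested genes under 1000 bases that are not members, 85.5% lay below 0 with a median of -0.38, and the 11 members of that class were all below 0 with a median of -0.43. From 1000 to 2000 bases the 28 members were all below 0 with a median of -0.28, against 64.4% and -0.11 for 3440 other genes. At 2000 bases and over, 4 of 8 members lay below 0 with a median of -0.04, against 35.6% and 0.11 for 7836 other genes.

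The members' median was lower than that of the other genes in each of the 3 length classes. These classes are wide, and within each of them the median of all tested genes also rose with length. The members were not matched to the other genes in length inside a class. The comparison by class therefore cannot set the members apart from the length trend. Across 46 tested members, leaving out Psma8, the estimate correlated with log2 length (Pearson r = 0.62, Spearman rho = 0.56). This is a correlation across genes measured in the same 6 libraries, given as a description. It was 0.39 and 0.51 within the 14 core genes and 0.55 and 0.62 within the 17 regulatory genes.

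Genes of the core's own length range that are not members had a median of -0.14 with 66.5% below 0, against the core's -0.37 and 14 of 14. The corresponding median for the beta range was -0.18, against -0.49 for the beta genes, and for the alpha range -0.12, against -0.30 for the alpha genes. For the regulatory range it was -0.01, against -0.20 for the regulatory genes. These other genes were longer than the members within each range. Their median length was 1446 bases against 1060 for the core and 1261 against 896 for the beta genes. It was 1508 against 1161 for the alpha genes and 2061 against 1543 for the regulatory genes. Shorter genes had lower estimates, so the ranges do not match the members in length. All tested genes of 800 to 1000 bases had a median of -0.31. When the trend of each library over transcript length and GC content was removed before the fit, the beta genes stayed at 7 of 7 below 0 with a median of -0.33. The alpha median moved to -0.11, the core median to -0.16 and the regulatory median to -0.14.

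After that step, all genes had a median of -0.03 with 54.0% below 0, and 37 of 47 members were below 0 with a median of -0.12. The share of members with all knockout-labelled libraries below all controls was 23.4% (11 of 47), against 5.01% of all genes. The core and regulatory medians then differed by -0.020. Per library, core minus regulatory was then -0.01, 0.04 and 0.00 in the controls against -0.13, 0.01 and -0.06 in the knockout-labelled group, a difference of -0.075 between group means. The beta genes' median deviations became 0.14, 0.20 and 0.08 in the controls against -0.14, -0.16 and -0.20 in the knockout-labelled group, so that the median of knockout-labelled replicate 1 no longer stood with the controls. Single beta genes did not all separate. All knockout-labelled libraries lay below all controls for 2 of 7 beta genes after the step (5.01% of all genes) and for 3 of 7 before it (4.55%).

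**Figure D3:**
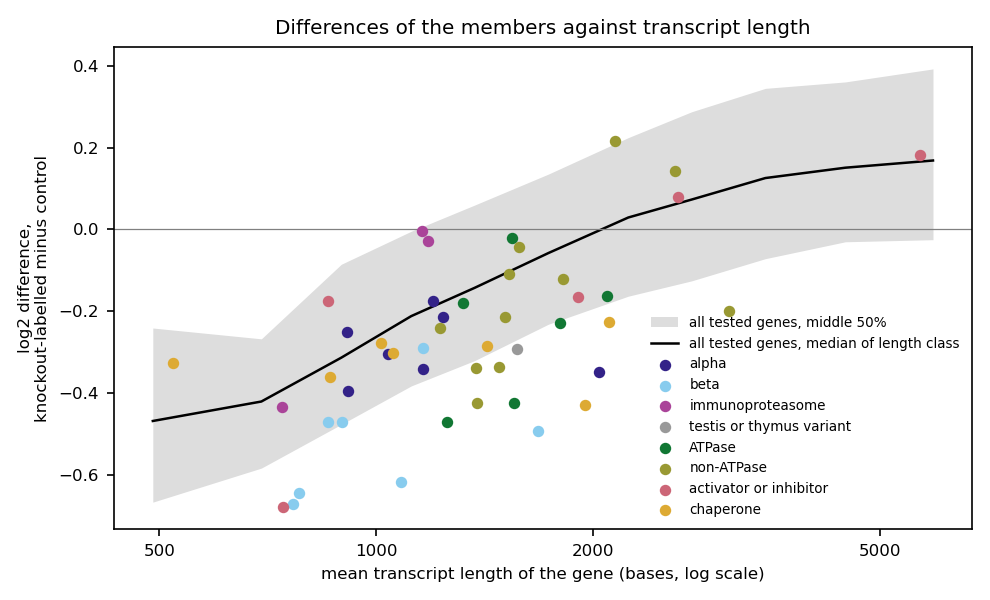
The log2 difference of each tested member (vertical axis) is plotted against the mean transcript length of its gene in bases (log axis), coloured by role. The black line is the median of all tested genes by length class and the grey band their middle 50%, and the 7 beta genes lie below the line, whereas Psmb8 and Psmb9 lie above it.

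Among the alpha subunits, Psma4 measured 136, 156 and 146 CPM in the controls and 115, 115 and 116 CPM in the knockout-labelled libraries. The 3 knockout-labelled values were nearly equal and below every control, by -0.34 ± 0.18 (SE) on the log2 scale (edgeR adjusted p = 0.845). Psma7 measured 98.3, 104 and 98.3 CPM against 88.7, 69.5 and 70.4 CPM, again without overlap (-0.40 ± 0.19, edgeR adjusted p = 0.845). The other 5 alpha genes of the constitutive core had estimates from -0.35 (Psma2) to -0.17 (Psma1). Psma8 stayed between 0.398 and 1.42 CPM in all libraries.

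Of the beta subunits without a proteolytic site of their own, Psmb3 measured 172, 130 and 117 CPM in the controls and 119, 74.8 and 68.7 CPM in the knockout-labelled libraries. Knockout-labelled replicate 1 lay above control replicate 3, so the groups overlapped, and the estimate of -0.67 had a 95% interval of -1.30 to -0.04 (edgeR adjusted p = 0.845). Psmb2 measured 70.8, 87.8 and 89.4 CPM against 69.3, 54.2 and 55.6 CPM. Its groups did not overlap, but control replicate 1 and knockout-labelled replicate 1 differed by little. Psmb1 and Psmb4 had estimates of -0.49 and -0.62.

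The constitutive catalytic subunits are Psmb5, with chymotrypsin-like activity, Psmb6, with caspase-like activity, and Psmb7, with trypsin-like activity. Psmb5 lies at chr14:54614119-54618022 on the minus strand, and the window before its RefSeq start is the first one printed above. It measured 87.1, 78.6 and 81.2 CPM in the controls and 67.7, 50.9 and 59.8 CPM in the knockout-labelled libraries. All 3 knockout-labelled values were below the lowest control, and the estimate was -0.47 ± 0.19 (95% interval -0.91 to -0.03, edgeR adjusted p = 0.845).

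Psmb6 (chr11:70525367-70527858, plus strand) measured 185, 127 and 128 CPM against 129, 78.9 and 72.4 CPM. Control replicate 1 was the highest, and knockout-labelled replicate 1 equalled the other controls (-0.64 ± 0.29). Psmb7 (chr2:38588036-38644087, minus strand) measured 80.6, 131 and 121 CPM against 89.4, 96.6 and 85.3 CPM. Its lowest value was a control, and the groups overlapped (-0.29 ± 0.23, edgeR adjusted p = 0.857). Removing the length and GC trend left -0.15 for Psmb5, -0.33 for Psmb6 and -0.10 for Psmb7.

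The inducible counterparts Psmb8 and Psmb9 had estimates near 0 with wide errors. Psmb8 and Psmb9 lie in the MHC region of chromosome 17, at chr17:34197721-34201454 (plus strand) and chr17:34181987-34187764 (minus strand), with the peptide transporter gene Tap1 between them. The annotated ends of Psmb9 and Tap1 overlap on opposite strands, and without stated use of strand their reads cannot be told apart there. Psmb8 measured 32.4, 26.2 and 32.1 CPM in the controls and 43.1, 16.5 and 29.3 CPM in the knockout-labelled libraries. Both the highest and the lowest value belonged to the knockout-labelled group, and the estimate was -0.03 ± 0.32.

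Psmb9 measured 19.1, 15.6 and 18.6 CPM against 18.5, 9.604 and 24.9 CPM, with the same wide spread (estimate -0.00 ± 0.32, 95% interval -0.74 to 0.73). Psmb10 (chr8:105935735-105938444, minus strand) measured 27.4, 26.2 and 35.5 CPM against 29.4, 15.8 and 20.7 CPM (-0.43 ± 0.26). Replicates 2 and 3 of the knockout-labelled group were below all controls and replicate 1 was among them. The signs of Psmb8 and Psmb9 turned positive under 7 and 10 of 19 alternatives, so no direction is given for either.

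The balance of each pair was read from TPM, as the inducible gene's share of the pair over all annotated transcripts. Part of these lay on transcripts not annotated as coding, so the shares do not measure the subunits. A retained-intron transcript took 81.7%, 67.3% and 71.8% of Psmb8 counts in the controls against 84.4%, 47.0% and 53.7%. The 1311-base coding transcript of Psmb10 took 41.6%, 66.7% and 62.5% of its counts in the controls against 37.0%, 66.5% and 80.7%. Psmb8 made up 18.9%, 20.8% and 22.7% of Psmb8 and Psmb5 together in the controls against 28.3%, 20.4% and 26.9% in the knockout-labelled group. Knockout-labelled replicates 1 and 3 were above all controls and replicate 2 was not, and the log2 ratio differed by 0.35 between group means. Psmb9 made up 5.98%, 6.12% and 8.02% of Psmb9 and Psmb6 in the controls against 11.3%, 6.01% and 15.9% in the knockout-labelled group (log2 ratio difference 0.70).

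Psmb10 made up 49.9%, 28.7% and 39.0% of Psmb10 and Psmb7 in the controls against 50.9%, 23.1% and 27.3% in the knockout-labelled group (log2 ratio difference -0.38). With CPM per kilobase these differences were 0.35, 0.60 and -0.33. The TPM of knockout-labelled replicate 1 is not comparable for genes with short transcripts, as described below. From CPM per kilobase its shares were 30.6% for Psmb8, 10.5% for Psmb9 and 38.6% for Psmb10. With 3 libraries against 3, an exact permutation test cannot give a two-sided p below 0.10, and none was run. The groups overlapped in all 3 pairs. Summed leukocyte markers, 11 genes with none at 0 in any library, measured 81.1, 99.5 and 117 CPM in the controls and 114, 70.6 and 88.6 CPM in the knockout-labelled libraries, where replicate 2, with the lowest inducible shares of that group, also had the lowest sum. The part of leukocytes in these shares was not tested.

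**Figure D4:**
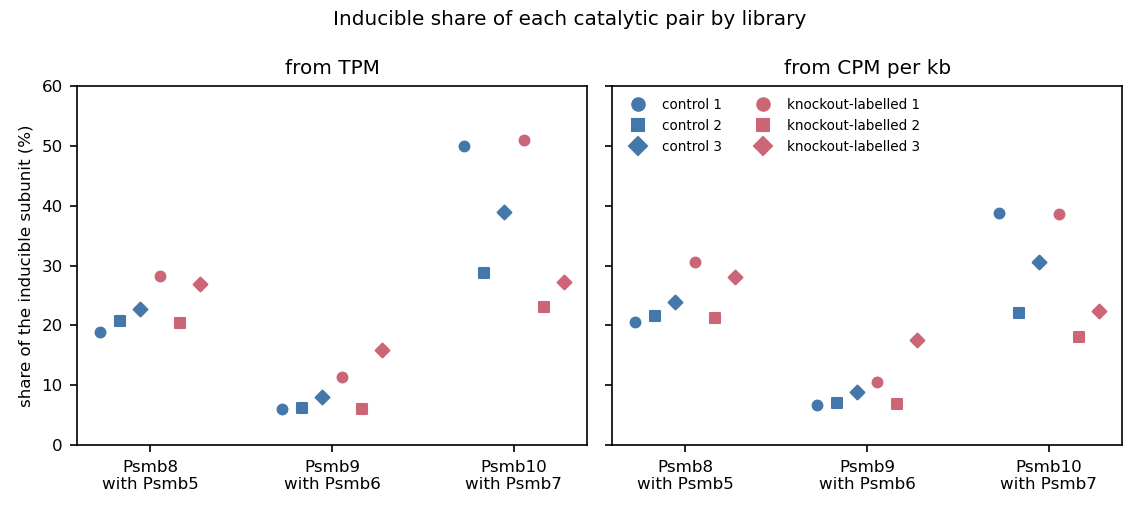
The share of the inducible subunit in each catalytic pair (vertical axis, percent) is shown for each library, from TPM on the left and from CPM per kilobase on the right. Psmb10 takes the largest shares from TPM, 23.1% to 50.9%, and the groups overlap in each pair. The 50.9% is knockout-labelled replicate 1, whose TPM is not comparable for genes with short transcripts, and from CPM per kilobase it was 38.6%. From CPM per kilobase Psmb8 had the larger share in knockout-labelled replicates 2 (21.2% against 18.1%) and 3 (28.1% against 22.4%).

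In the regulatory particle, the ATPase genes Psmc1 to Psmc6 all lay below 0, with a median of -0.20, but with library totals 2 of 6 did, with a median of 0.059. Psmc3 measured 99.4, 100.3 and 99.4 CPM in the controls and 80.9, 68.5 and 73.7 CPM in the knockout-labelled libraries. The controls were almost identical and every knockout-labelled value was lower (-0.42 ± 0.18, edgeR adjusted p = 0.845). Psmc4 measured 137, 117 and 141 CPM against 123, 77.1 and 85.7 CPM, where knockout-labelled replicate 1 lay above control replicate 2 (-0.47 ± 0.24). Psmc1 was near 0 at -0.02.

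Among the 11 non-ATPase genes 9 lay below 0, but with library totals 3 did. Psmd6, a subunit of the lid, measured 67.6, 74.5 and 69.3 CPM in the controls and 67.0, 47.9 and 52.4 CPM in the knockout-labelled libraries. No knockout-labelled value reached the controls, though control replicate 1 and knockout-labelled replicate 1 differed by less than 1 CPM (-0.34 ± 0.20). Psmd8, another lid subunit, measured 87.2, 151 and 165 CPM against 126, 87.6 and 87.2 CPM, with control replicate 1 as low as knockout-labelled replicates 2 and 3 (-0.42 ± 0.29). Psmd4, a ubiquitin receptor of the regulatory particle, measured 128, 109 and 106 CPM against 113, 83.0 and 95.03 CPM (-0.24 ± 0.21).

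Psmd3, a lid subunit, was the regulatory gene with the highest estimate. It measured 51.6, 47.9 and 41.2 CPM in the controls and 49.0, 57.05 and 57.6 CPM in the knockout-labelled libraries. Replicates 2 and 3 of the latter were above all controls and replicate 1 was among them (0.22 ± 0.19, edgeR adjusted p = 0.870). The other gene of the regulatory particle above 0, Psmd11, had an estimate of 0.14 and was singled out after its value was seen. Psmd14, the deubiquitinase of the lid, had an estimate of -0.21, and the large base subunits Psmd1 and Psmd2 had -0.20 and -0.11.

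Psme1 and Psme2 encode the activator that interferon induces and that opens the core without ATP. Psme1 measured 206, 172 and 184 CPM in the controls and 161, 86.3 and 104 CPM in the knockout-labelled libraries. All 3 knockout-labelled values were below the lowest control, with an estimate of -0.68 ± 0.27 (95% interval -1.29 to -0.06, edgeR adjusted p = 0.845). Removing the length and GC trend left -0.35 for Psme1. All tested genes of 600 to 800 bases, which takes in its mean transcript length, had a median of -0.42. Psme2 measured 62.0, 67.6 and 68.2 CPM against 64.7, 51.2 and 59.4 CPM, with overlap (-0.17 ± 0.19).

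The difference between these partners of 1 complex was not tested, and for Psme2 the sign turned positive under 4 alternatives. Psme2b, a near-identical copy of Psme2, had 0 to 0.0443 CPM. Psme3 and Psme4, which encode nuclear activators, had estimates of 0.08 and 0.18 and were singled out after their values were seen. The inhibitor gene Psmf1 measured 29.2, 23.9 and 23.1 CPM against 24.7, 20.8 and 22.5 CPM (-0.16 ± 0.18).

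All 7 chaperone genes lay below 0, from -0.43 to -0.23, with a median of -0.30, against -0.15 for other genes of their length range. Those other genes were longer, with a median length of 1419 bases against 1056 for the chaperone genes. The chaperone median was -0.49 without knockout-labelled replicate 1, and with library totals it was -0.046 with 6 of 7 below 0. Psmd9, a chaperone of the ATPase ring, measured 46.7, 49.99 and 52.9 CPM in the controls and 45.8, 37.1 and 28.3 CPM in the knockout-labelled libraries. All 3 lay below the controls, by a narrow margin for replicate 1 (-0.43 ± 0.22). Psmg3, a chaperone of the alpha ring, measured 9.85, 8.98 and 8.05 CPM against 8.67, 6.06 and 6.20 CPM (-0.36 ± 0.23). With the length and GC trend removed the chaperone median was -0.11.

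In the transcripts to which the members' counts were assigned, replicate 1 of each group differed from the other libraries. Psme1 has a coding transcript of 1112 bases, with 2069, 2311 and 2690 estimated counts in the controls against 1833, 1577 and 1948 in the knockout-labelled group. Its 439-base transcript, annotated as a target of nonsense-mediated decay, had 1750, 777 and 1121 counts against 1813, 303 and 400. Replicate 1 of both groups thus carried the most of the short form. With transcripts annotated as protein coding alone, the median was -0.38 for the core and -0.20 for the regulatory particle.

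Psmb1 had 1848, 0 and 591 counts on its 1435-base transcript in the controls against 1615, 0 and 0 in the knockout-labelled group, beside 1060, 3140 and 2974 against 1918, 2338 and 2225 on its 1758-base transcript. Psmd2 had 970, 237 and 499 counts on a 659-base transcript in the controls against 1085, 97.8 and 155 in the knockout-labelled group. In both genes the shorter transcript was highest in replicate 1 of each group. Psmc3 showed the same for a 1419-base transcript, with 1230, 0 and 0 counts against 835, 3.45 and 0.

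In all, 21 transcripts of 16 members held under 1% of their gene's counts in 1 library and over 10% in another. They took 10.3%, 1.54% and 2.99% of the members' counts in the controls against 7.94%, 2.23% and 1.86% in the knockout-labelled group. Transcripts under 700 bases took 9.21%, 2.48% and 4.03% against 9.80%, 1.86% and 2.13%. Over all genes they took 18.2%, 12.6% and 17.2% of counts against 17.4%, 12.3% and 10.9%, with control replicate 3 near replicate 1 of both groups. What sets replicate 1 of each group apart was not tested.

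In TPM, Psmb4 stood at 399 in knockout-labelled replicate 1 and at 78.2 to 121 in the other 5 libraries, whereas its CPM of 131 in that library lay within the controls' 129 to 154. A 292-base transcript of Psmb4 with a retained intron had 396 counts there and at most 7.35 elsewhere. That library was quantified with another fragment length setting, under which short transcripts had a shorter effective length, so its TPM of genes with short transcripts is not comparable with the other 5.

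**Figure D5:**
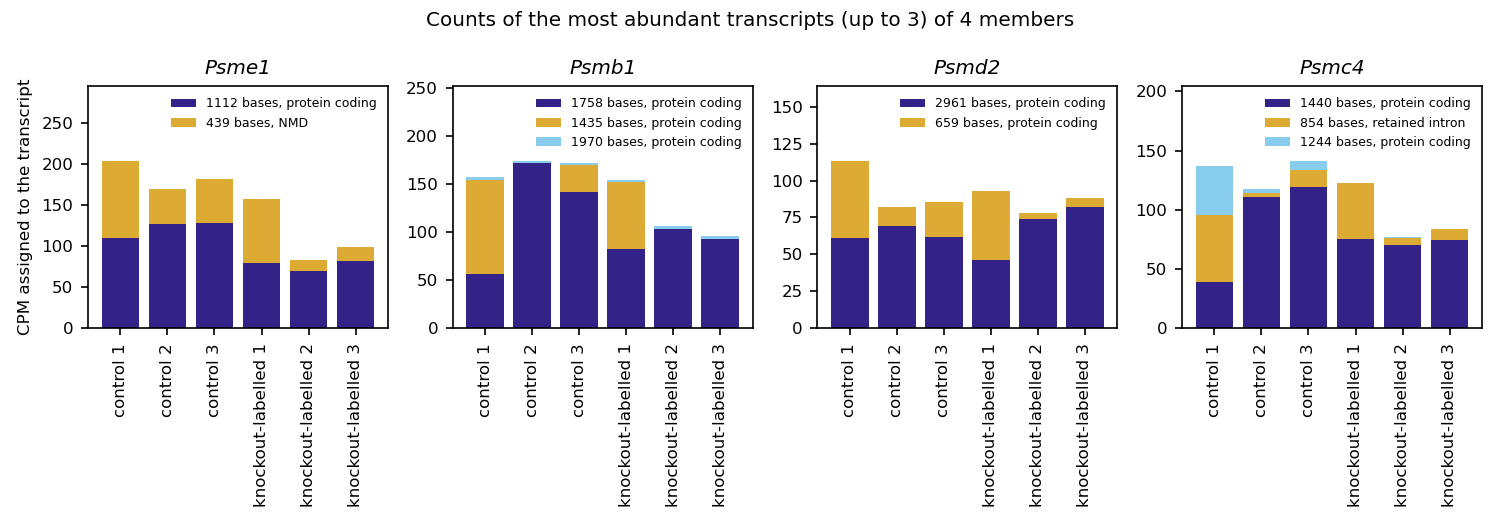
Bars give the CPM assigned to the most abundant transcripts, up to 3, of Psme1, Psmb1, Psmd2 and Psmc4 in each library, stacked, with lengths in bases and annotated types in the legends. The shorter transcripts of Psme1, Psmb1 and Psmd2 are tallest in control 1 and knockout-labelled 1 and lower in control 2 and knockout-labelled 2 and 3.

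Genes that work with the proteasome were read from 4 fixed lists. Of 8 genes of the NRF1 pathway and its regulators, 2 lay below 0 and 6 above it, with a median of 0.10. Nfe2l1, which encodes NRF1, measured 51.8, 56.9 and 37.2 CPM in the controls and 40.6, 68.2 and 67.9 CPM in the knockout-labelled libraries (0.28 ± 0.27). Ddi2, the protease that activates NRF1, had an estimate of 0.29 and Nfe2l2, which encodes the related factor NRF2, of 0.32. None passed the test, and with the length and GC trend removed the median of the list was -0.01.

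Of 15 tested genes for other proteasome-bound proteins, 8 lay below 0, with a median of -0.02. Sem1, a small subunit of the regulatory particle without a Psm symbol, measured 77.9, 58.0 and 72.7 CPM in the controls and 64.0, 36.9 and 33.2 CPM in the knockout-labelled libraries (-0.64 ± 0.28). Pomp, the maturation factor of the core, measured 164, 157 and 189 CPM against 159, 99.9 and 105 CPM (-0.49 ± 0.24). In both genes replicates 2 and 3 of the knockout-labelled group were below all controls and replicate 1 was not. Rad23b, a shuttle that brings ubiquitinated proteins to the proteasome, had an estimate of 0.44.

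Of 9 genes of the VCP segregase, which extracts ubiquitinated proteins, 6 lay below 0, with a median of -0.04. The 3 with the smallest p had estimates of -0.21 (Ufd1), -0.22 (Faf1) and 0.43 (Ubxn7). Of 11 genes of MHC class I peptide loading and its regulators, which take up peptides made by the proteasome, 6 lay below 0, with a median of -0.14. Irf1, the interferon factor that drives the inducible subunits, measured 12.4, 15.1 and 9.15 CPM in the controls and 10.4, 21.7 and 28.3 CPM in the knockout-labelled libraries (0.72 ± 0.36). The loading chaperones Calr and Pdia3 had estimates of -0.45 and -0.38. None of the genes in these 4 lists passed edgeR's test.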

How the data were processed

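The deposited file of each library holds transcript-level values in Salmon's layout, per the file headers: an estimated count, not scaled to depth, a TPM value, scaled by the authors to length and to a fixed total per library, and a length and effective length. Software options and transcriptome: not given in the sources used here. The submitters' processing notes name Bowtie2 2.2.5, RSEM 1.2.8, DESeq and GRCm38 with no role. Of 115221 transcripts, 113664 matched GENCODE M21 without their version (13 with it). The other 1557, with 0.247% of counts, were left out. Coordinates are those of GENCODE M21 on GRCm38, and the annotation behind the files is another release. Effective lengths gave an implied fragment length of exactly 250 in knockout-labelled replicate 1, where 100-base transcripts have an effective length of 3.50 instead of 100, so this library was quantified with another setting.

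Estimated counts were summed per gene, rounded, filtered with filterByExpr, scaled with TMM factors (CPM) and tested with edgeR 4.0.16 in R 4.3.3 (quasi-likelihood, two-sided, Benjamini-Hochberg over all 12497 genes, threshold 0.05). Log2 differences are knockout-labelled minus control, with the SE taken as the absolute difference over the square root of F and a 95% interval from the test's own degrees of freedom. The test was checked on simulated counts. The changes put in were larger than any member's estimate, so the check does not cover differences of the members' size. Classes and lists have no test and are described by counts and medians beside those of all genes. The members and all lists were chosen with earlier results of these data known, so a shared direction is not independent evidence. Named by rule were the catalytic subunits, the members with the smallest p in each class, the highest and lowest member in TPM and, of each partner list, the 3 genes with the smallest p. A further partner list is not reported here. Without stated use of strand, overlapping genes and near-identical copies cannot be told apart. Paaf1 and the hepatocyte marker Tf matched no symbol in the annotation.

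Alternatives were RLE scaling, library totals, DESeq2 1.42.0, voom of limma 3.58.1, no filter, protein-coding genes, a length offset, removal of each library's trend over length and GC content (loess, span 0.5, degree 2), the transcript with the highest TPM, each library left out, and the replicate number as a block. The transcript with most counts and coding transcripts alone were added after seeing the data. The labels call the animals biological replicates. The p-values set the difference between groups against the spread of these 6 libraries within their groups, moderated over genes.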

Additional observations from a re-analysis of the deposited data

How the results depend on the processing

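The direction of the core, regulatory, and activator, inhibitor and chaperone medians was kept under each alternative run, except that the regulatory median became 0.064 with library totals. Taken without the chaperones, the 5 activator and inhibitor genes had a median of -0.16, which became 0.065 with coding transcripts alone, 0.022 with the transcript of highest TPM, 0.0074 with the replicate block and the trend removed, and 0.10 with library totals. With the length and GC trend removed the core median was -0.16, that of activators, inhibitor and chaperones -0.081, and the core minus regulatory difference -0.020. With library totals these were -0.11 for the core and -0.024 for activators, inhibitor and chaperones. Genes called numbered 11 with DESeq2. Leaving out each library gave 0 to 3 genes called, with 3 without knockout-labelled replicate 1, and medians of -0.52 to -0.33 for the core, -0.23 to -0.14 for the regulatory particle and -0.37 to -0.17 for activators, inhibitor and chaperones, and -0.29 to -0.12 for core minus regulatory. The cause was not tested.

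Same-numbered libraries had correlations of deviations of 0.20, 0.27 and -0.14, so the numbers were not taken to pair the animals. With the replicate number as a block, edgeR called 0 genes, and the core median was -0.38 and the regulatory median -0.19. With the replicate block and the length and GC trend removed together, the core median was -0.17, that of activators, inhibitor and chaperones -0.089 and core minus regulatory -0.027.

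Of the 47 members, 19 turned above 0 with library totals, and with the trend removed 7 turned above 0 and 1 below. Of the genes named by rule, those that changed sign, with no estimate past the threshold on either side, were these. With library totals the values were 0.23 for Psmb8, 0.26 for Psmb9, 0.023 for Psmd4, 0.087 for Psme2, 0.10 for Psmf1, 0.012 for Psma8, 0.043 for Ufd1, 0.045 for Faf1 and 0.075 for G3bp1. With the trend removed they were 0.12 for Psmb8, 0.20 for Psmb9 and 0.13 for Psme2, and with the replicate block as well 0.059, 0.090 and 0.12. With the length offset they were 0.20 for Psmb9 and 0.34 for Psmd9. That offset uses the effective lengths, which came from another setting in knockout-labelled replicate 1. With coding transcripts alone they were 0.24 for Psmb8, 0.048 for Psmb9 and 0.17 for Psmf1. With the transcript of highest TPM they were 0.083 for Psmb9, 0.022 for Psme2 and -0.045 for Nfe2l1, and with the transcript of most counts 0.050 for Psmb9 and -0.072 for Nfe2l1. Leaving out each library gave -0.40 to 0.26 for Psmb8 and -0.34 to 0.29 for Psmb9, positive without knockout-labelled replicate 2, control replicate 1 or control replicate 3, and -0.91 to 0.34 for Psma8, positive without control replicate 2. The planned comparison of protein sequences was not run. Psma8 was measured at 0.398 to 1.42 CPM, the lowest of the tested members.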
